A study of Populus alba x Populus glandulosa with 9 samples.

Results

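The genes described here are 64 of the 85755 gene identifiers measured in stems of 84K poplar, and they share 1 pattern: a low but measurable level near the shoot tip and a high, similar level in the middle and at the bottom of the stem. They were chosen from the deposited FPKM values (fragments scaled to gene length and library total). The lowest of the 6 middle and bottom libraries had to reach at least 20 FPKM and at least 3 times the highest top library. The highest top value had to be above 0.2 FPKM, and the ratio of bottom mean to middle mean had to lie between 0.67 and about 1.5. Every rise from the top and every plateau reported below was therefore set by the choice of genes. Such values, and the test calls printed for them, are given as a description only.

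84K is a poplar hybrid, Populus alba x Populus glandulosa, used widely as a laboratory tree. The wild-type plants were 6 months old and about 200 cm tall, and the labels give no treatment. The 3 top libraries came from internodes 2 to 3, the 3 middle libraries from internodes 9 to 10 and the 3 bottom libraries from internodes 14 to 15. Nothing in the labels says that replicates were separate plants, so a p-value here covers the spread among replicate libraries, part of which may be technical.

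As background, a poplar stem ages from the tip downwards. Young internodes near the tip still elongate and are built mainly of primary tissues, while lower internodes no longer elongate and thicken through the vascular cambium, which lays down wood (secondary xylem) inwards and secondary phloem outwards. Wood cells deposit thick secondary walls of cellulose, xylan and lignin, and many of them then die. RNA was extracted from stems and not from sorted cells, so a lower level in the top can reflect fewer cells of a type or less RNA per cell, and the 2 cannot be told apart. The files give identifiers without gene names, so no function is given for any gene, the tissue was not checked against marker genes, and identifiers are printed for only a few genes.

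Library totals were 41434042 to 75217046 counts, and all counts were even, which would result from counting both mates of a read pair. A count of 0 allowed up to 0.0798 to 0.145 FPKM for a gene of 1 kb (3 read pairs, counting error only). All 64 genes passed the filter on low counts and had counts above 0 in all 9 libraries. The smallest value among them, in a top library, rested on 5 read pairs, and the median gene had 439.5 read pairs over the 3 top libraries together.

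The plateau genes had a median level of 4.74, 4.22 and 4.78 FPKM in top libraries 1 to 3. The median was 80.8, 51.5 and 83.5 FPKM in the middle libraries and 67.4, 87.9 and 103 FPKM in the bottom libraries. The medians of the top libraries lay close together, whereas that of middle library 2 was below those of the other 5 lower-stem libraries. Single genes varied more between top libraries, with a median coefficient of variation of 48.3%. Over the genes, the ratio of middle mean to top mean ranged from 4.16 to 297 with a median of 16.4. The ratio of bottom mean to top mean ranged from 4.92 to 366 with a median of 17.9. The ratio that the choice used, of the lowest lower-stem library to the highest top library, was under 4 for 8 genes, between 4 and 10 for 36, between 10 and 30 for 17 and above 30 for 3.

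**Figure D1:**
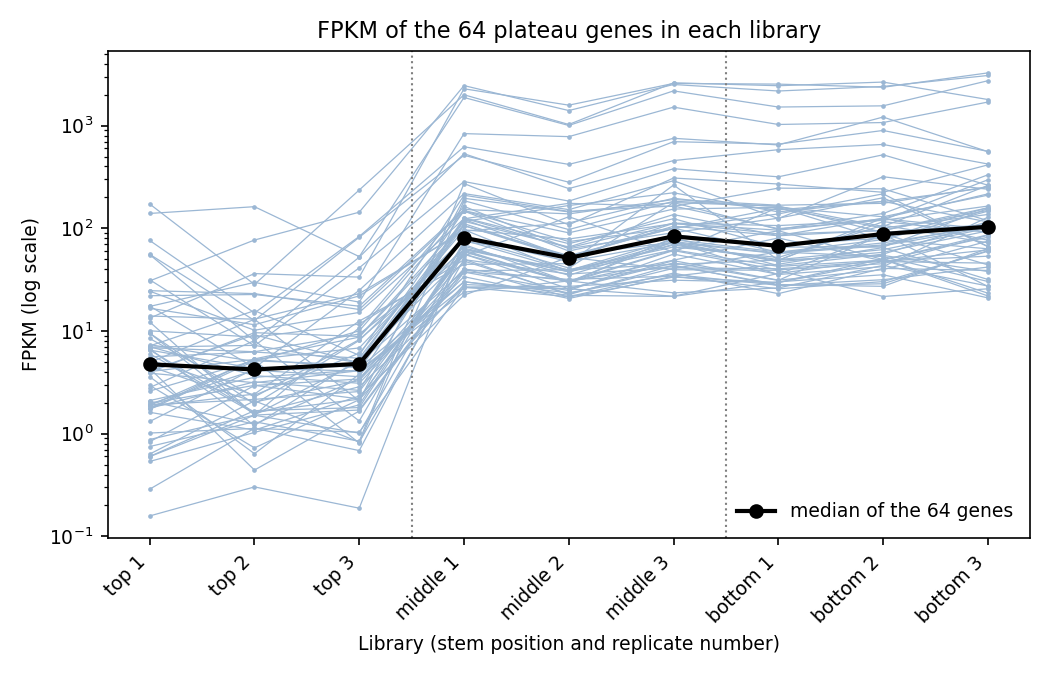
FPKM (log axis) of the 64 plateau genes in each of the 9 libraries. Each thin line joins the values of 1 gene, the heavy line is the median, and the order of replicates within a position has no meaning. The median lies between 4.22 and 4.78 FPKM in the top libraries and between 51.5 and 103 FPKM in the others.

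Together these genes took a small part of each library in the top and a larger one below it. Their share of all counts was 0.0616%, 0.0570% and 0.0649% in the top libraries. It was 1.14%, 0.689% and 1.25% in the middle libraries and 1.06%, 1.15% and 1.491% in the bottom libraries. The 4 of the 64 genes with the highest lower-stem means held 39.4% to 47.1% of the summed FPKM of the set in the top, 49.4% to 53.1% in the middle and 48.7% to 53.2% in the bottom.

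The set spans a wide range of levels. Over the 6 middle and bottom libraries, 18 genes had a mean of 20 to 50 FPKM, 16 of 50 to 100, 23 of 100 to 500, 2 of 500 to 1000 and 5 of over 1000 FPKM. Those 5 were all among the 20 most abundant of all 85755 genes by this mean, and 19 of the 64 were among the 500 most abundant. In the top, 3 genes had a mean of at most 1 FPKM, 31 of 1 to 5, 19 of 5 to 20 and 11 of more than 20 FPKM. The plateau genes therefore include nearly silent top genes as well as genes already at moderate levels there.

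The highest level belonged to Pop_A09G059553. It had 13.3, 36.2 and 33.5 FPKM in top libraries 1 to 3, then 2283, 1582 and 2574 FPKM in the middle and 2536, 2362 and 3260 FPKM in the bottom. All 6 lower-stem libraries lay above the top ones by a factor of at least 43.7, and the gene ranked 5 among all genes by its lower-stem mean. Its mean was 98.3 times as high in the bottom as in the top, the largest such ratio after those of Pop_G01G075636 (366) and Pop_G09G031627 (313).

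Pop_G09G014168 was the next in level. Its libraries held 30.7, 76.8 and 143 FPKM at the top, 2452, 1401 and 2514 FPKM at the middle and 2172, 2406 and 3075 FPKM at the bottom position. Its mean level over the lower stem was close to that of Pop_A09G059553, 2337 against 2433 FPKM. In the top these genes had 83.7 ± 56.7 and 27.7 ± 12.5 FPKM (SD, n = 3 each). The highest top library was number 3 for Pop_G09G014168 and number 2 for Pop_A09G059553.

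**Figure D2:**
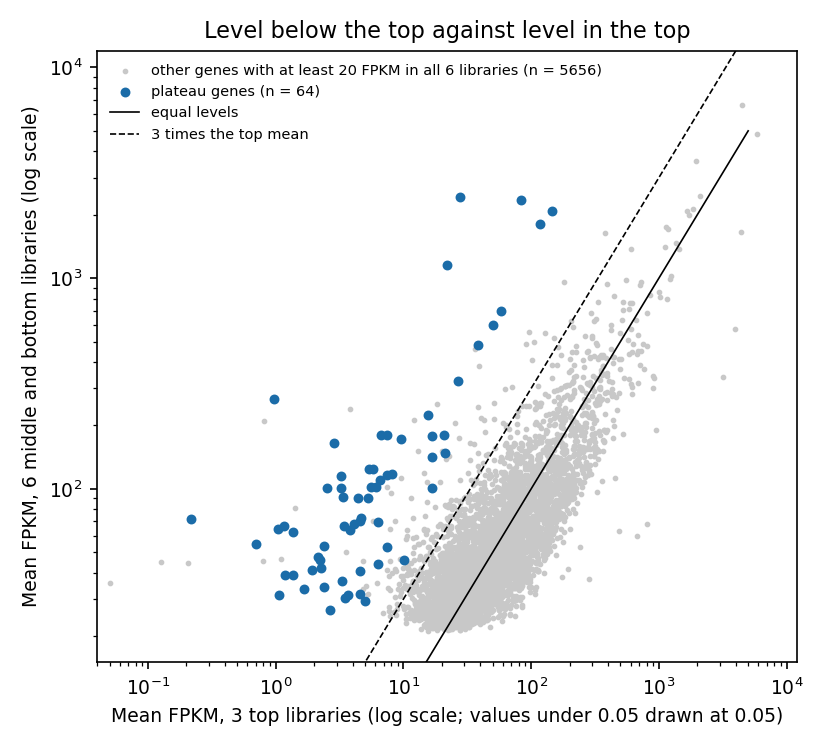
Mean FPKM over the 6 middle and bottom libraries against mean FPKM over the 3 top libraries (both log axes) for the 5720 genes with at least 20 FPKM in all 6. The 64 plateau genes lie above the line of 3 times the top mean, as their choice requires, and reach lower-stem means above 1000 FPKM in 5 cases.

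The largest ratio of middle to top was that of Pop_G01G075636. It had 0.158, 0.303 and 0.188 FPKM in the top libraries, 76.5, 38.8 and 77.6 FPKM in the middle libraries and 58.6, 68.9 and 110 FPKM in the bottom libraries. Its mean was 64.3 ± 22.1 FPKM in the middle and 0.216 ± 0.0765 FPKM in the top (SD, n = 3 each). The ratio of these means, 297, rests on 24 read pairs in the 3 top libraries together. The bottom libraries overlapped the middle libraries.

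Pop_G09G031627 followed, with 0.749, 1.31 and 0.844 FPKM in the top libraries, 273, 108 and 309 FPKM in the middle libraries and 270, 224 and 414 FPKM in the bottom libraries. The ratio of its middle mean to its top mean was 238. Like the gene before it, it had its lowest lower-stem value in middle library 2 and its highest in bottom library 3.

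Pop_A08G064190 came next by its ratio of bottom to top, after the 3 genes already named for larger ones. Its values were 0.288, 1.13 and 0.684 FPKM in the top, 59.0, 30.4 and 61.6 FPKM in the middle and 42.5, 48.9 and 86.4 FPKM in the bottom. The ratio of its bottom mean to its top mean was 84.7, and its middle and bottom libraries overlapped.

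Fitted with edgeR's quasi-likelihood model over all 52436 genes kept, all 64 plateau genes were called higher in middle than in top libraries at a Benjamini-Hochberg adjusted p under 0.05, where 8.2% of all genes tested were. All 64 were also called higher in bottom than in top libraries, where 12.1% of all genes were. The choice of genes used both contrasts, so nothing is read from these counts. The median fitted log2 fold change was 4.0 for the middle and 4.08 for the bottom, each against the top, where the medians over all genes were 0.01 and 0.00. Without replicate number 3 in all positions, 32 of the 64 were called higher in the middle, where 0.394% of all genes were.

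Between bottom and middle, the choice limited the ratio of means. Within these limits, the ratio was at most 0.8 in 2 genes, between 0.8 and 1.2 in 24 and above 1.2 in 38. None of the 64 genes was called in either direction in edgeR (adjusted p of 0.843 to 1), where 0.811% of all genes were. At an unadjusted edgeR p under 0.05 the count was also 0, with no share of all genes to set beside it. In DESeq2 and limma it was 0 at an adjusted p under 0.05. Of all genes, DESeq2 called 0.212% higher and 3.16% lower in the bottom. The shares were 0.0153% and 0.585% in limma on log2(FPKM + 1), and 0.0229% and 0.837% on log2(FPKM + 0.1). In no plateau gene did all 3 bottom libraries lie above all 3 middle libraries, a pattern seen in 8.42% of all genes kept, and in none did they all lie below, as in 6.27%. Among the 5656 other well-expressed genes, 9.95% had all bottom libraries above all middle ones and 4.93% had all below. The choice bounded the ratio of means, and the plateau genes varied more between libraries of 1 position than those others. What these 2 features contribute to the counts was not tested. Nothing is read from the counts, and they do not show that middle and bottom are alike.

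The bottom mean was nevertheless above the middle mean in 60 of the 64 genes (93.8%), against 72.3% of the 5656 other genes that had at least 20 FPKM in all 6 lower-stem libraries. The median ratio was 1.23 for the plateau genes and 1.07 for those others. This excess was smaller without middle library 2. There the bottom mean was higher in 45 of the 64 (70.3%), with a median ratio of 1.06, against 61.3% and 1.04 for the other genes. Without bottom library 3 the bottom mean was higher in only 39 of the 64. The share of the other genes was not computed there, so it is not known whether any excess remains without that library.

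**Figure D3:**
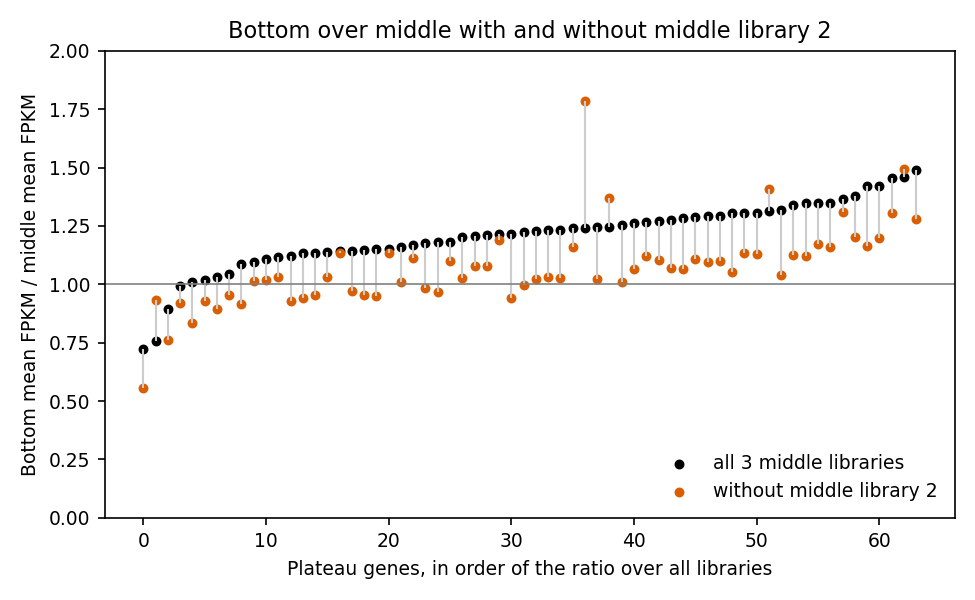
Ratio of bottom mean to middle mean FPKM for each of the 64 plateau genes, ordered by the ratio over all libraries (black) and recomputed without middle library 2 (orange). The black points run from 0.725 to 1.5, and the orange points from 0.554 to 1.78 with a median of 1.06.

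Middle library 2 stood apart in these genes. Of the 64, 45 (70.3%) had their lowest lower-stem value in it, against 42.1% of the 5656 other well-expressed genes, and 53 (82.8%) had their lowest middle value in it, against 53.4% of the others. In log2 FPKM, the median deviation of this library from the mean of the middle position was -0.53 over the plateau genes and -0.09 over the other well-expressed genes. At the other end, 33 of the 64 (51.6%) had their highest lower-stem value in bottom library 3, against 12.4% of the others. Without middle library 2, the same limits pick 85 genes, of which 61 are among the 64. This does not measure the part of that library, since the limits rest on the lowest and highest single libraries. Leaving out any 1 library gives 52 to 88 genes.

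The difference between the steps, from top to middle and from middle to bottom, was called in 37 of the 64 genes in edgeR at an adjusted p under 0.05, all with the lower change in the second step. Over all genes it was called in that direction in 1.03%. The choice used both steps, so this count is also a description. It was 24 with the replicate number as a block, where 0.605% of all genes were called in that direction. Leaving out 1 library gave 3 to 31 genes, and 0.043% to 0.738% of all genes. The count was 3 without bottom library 1, 6 without bottom library 2 and 15 without bottom library 3. The shares of all genes called in these fits were 0.043%, 0.0657% and 0.107%. The count was 21 without middle library 1, 14 without middle library 3 and 23 without top library 2, with shares of all genes of 0.685%, 0.577% and 0.351%.

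The spread between libraries of 1 position was large in these genes. The median coefficient of variation within the top was 48.3%, within the middle 32.6% and within the bottom 35.6%. The other well-expressed genes had medians of 14.8%, 14.0% and 11.8%, and all genes kept had 20.3%, 19.7% and 15.9%. The plateau genes have low levels in the top by choice. Below the top, their library medians were at least 51.5 FPKM. The other well-expressed genes had a median lower-stem mean of 43.0 FPKM, which is a different measure. Whether level bears on the spread was not tested.

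The orders of libraries within positions are given beside those of the 5656 other well-expressed genes. These orders were not limits of the choice, but the choice used the lowest lower-stem and the highest top library of each gene. Of the 64 genes, 33 (51.6%) were highest in bottom library 3, 23 (35.9%) in bottom library 2 and 8 (12.5%) in bottom library 1, against 23.9%, 34.8% and 41.4% of the others. Among the 33 highest in bottom library 3, top library 1 was the lowest top library in 24 (72.7%) and top library 2 in 1 (3.03%), against 36.9% and 37.9% of the other well-expressed genes highest there. Among the 23 highest in bottom library 2, top library 2 was the lowest in 18 (78.3%) and top library 1 in 2 (8.70%), against 48.3% and 21.6% of the others. In all 8 genes highest in bottom library 1, top library 2 was lowest, against 48.5% of the others. Top library 2 was above the top mean in 31 of the 33 genes highest in bottom library 3 and in 2 of the 23 highest in bottom library 2. It was the highest top library in 21 of the 33 (63.6%) and 2 of the 23 (8.70%), against 25.1% and 16.8% of the others.

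**Figure D4:**
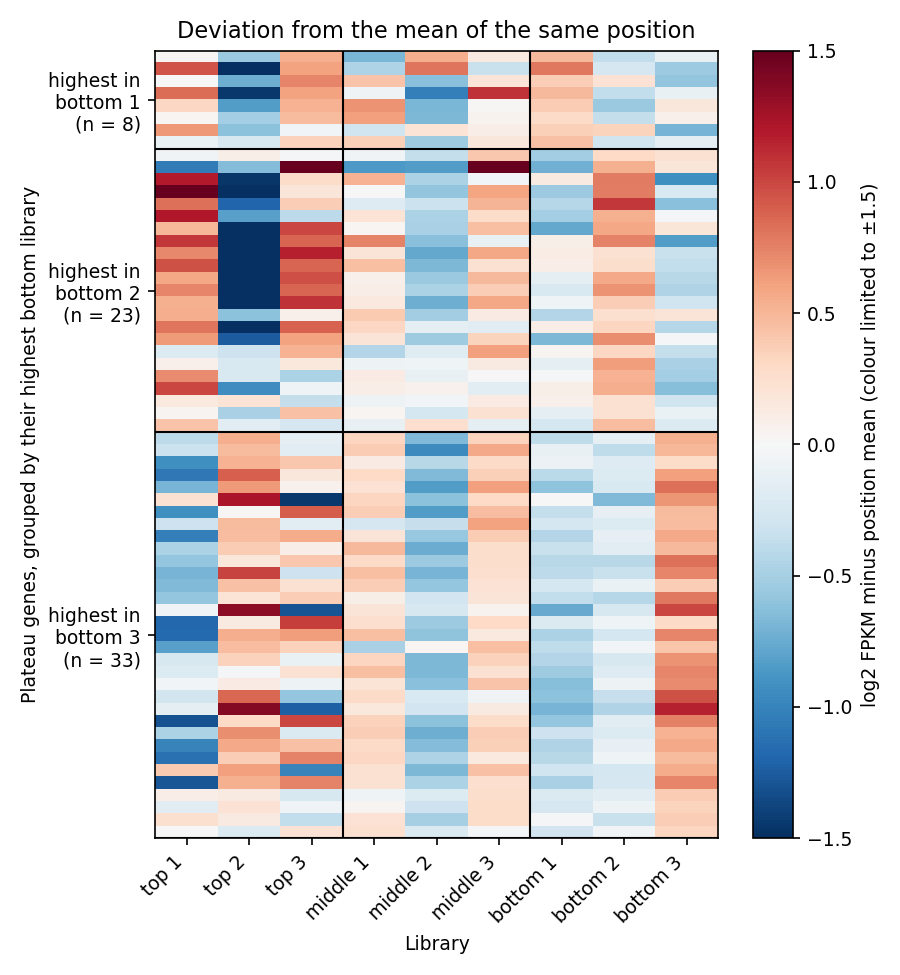
Deviation of log2 FPKM from the mean of the same position for the 64 plateau genes (one line each) in the 9 libraries, grouped by the bottom library in which each was highest (8, 23 and 33 genes). Red is above and blue below the position mean. Top library 2 is mostly blue in the group of 23 and mostly red in the group of 33, and middle library 2 is mostly blue in both.

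In the group of 33, the median was 65.7, 77.6 and 149 FPKM in bottom libraries 1 to 3 and 1.98, 5.17 and 4.16 FPKM in top libraries 1 to 3. In the group of 23, the bottom libraries had medians of 49.0, 116 and 66.5 FPKM, against 7.03, 3.14 and 5.03 FPKM for the top libraries. The middle libraries did not part the groups in this way: middle library 2 was below the position mean in all but 1 of the 33 and all but 2 of the 23. That library was also the lowest middle library in 53.4% of the 5656 other well-expressed genes. The median ratio of middle to top was 24.0 in the group of 33 and 10.3 in the group of 23. The gene length implied by counts and FPKM had a median of 1140 bases in the group of 33 and 387 bases in the group of 23. These groups were formed after the values were seen, so no test is given.

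Across the 64 genes, the log2 ratio of top library 2 to the mean of the other top libraries and the log2 ratio of bottom library 2 to bottom library 3 had a Pearson correlation of -0.81 and a Spearman correlation of -0.81. In 29 genes top library 2 was above the others and bottom library 2 below bottom library 3, and in 24 both signs were the opposite. Over 5653 of the other well-expressed genes (those above 0 in all libraries), the correlations were -0.23 and -0.20. Both ratios use libraries in which the groups above had been seen to differ, so they restate that pattern. All points share the same 5 libraries, and genes are not independent replicates, so these correlations describe the set.

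**Figure D5:**
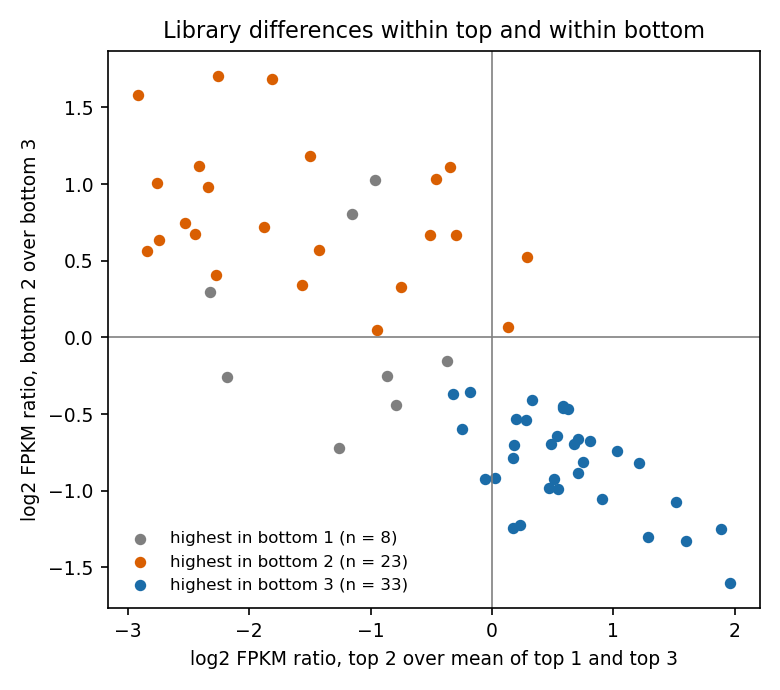
Log2 FPKM ratio of bottom library 2 over bottom library 3 against the log2 ratio of top library 2 over the mean of top libraries 1 and 3 for the 64 plateau genes, coloured by the bottom library in which each was highest. The points run from upper left to lower right, with a Pearson correlation of -0.81.

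The genes least even along the plateau were Pop_G05G008521 and Pop_G02G080489, chosen by the coefficient of variation over the 6 lower-stem libraries (83.3% and 58.4%). Pop_G05G008521 had 1.84, 2.43 and 12.5 FPKM in the top libraries, 44.6, 45.2 and 264 FPKM in the middle libraries and 49.0, 116 and 91.4 FPKM in the bottom libraries. Replicate 3 was the highest library in both the top and the middle, and the gene has the lowest ratio of bottom to middle of the set, 0.725. Pop_G02G080489 had 2.95, 0.727 and 2.14 FPKM in the top libraries, 28.3, 25.8 and 46.0 FPKM in the middle libraries and 31.1, 87.4 and 27.2 FPKM in the bottom libraries. Bottom library 2 was its highest library and top library 2 its lowest.

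By identifier class, 28 of the 64 plateau genes (43.8%) carry the letter A after the prefix, 36 (56.3%) carry G and 0 carry Un. The shares among the 5656 other well-expressed genes were 49.8%, 48.7% and 1.57%. A and G are used only as classes of identifier. The 64 genes fall under 16 of the 19 numbers that follow the letter, and 12 of these numbers hold plateau genes of both classes. Numbers 04 and 11 hold the most, with 4 and 4 and with 4 and 3 genes of class A and class G.

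Pairs of 1 plateau gene of class A and 1 of class G were compared by how they varied within positions. Over 75 pairs with the same number, the correlation of their log2 deviations within positions had a median of 0.65, and 17 pairs (22.7%) reached 0.9. Over 933 pairs with different numbers the median was 0.15, and 48 pairs (5.14%) reached 0.9. Each correlation is over the same 9 libraries and pairs share genes, so this is a description. In 3 of the 75 pairs the implied lengths differed by at most 2%. Of these, 2 pairs had correlations of 0.962 and 0.992 with lower-stem means 1.05-fold and 3.47-fold apart, and the remaining pair had a correlation of -0.57. No sequences were compared, so whether any of these pairs are near-identical copies is not known. Near-identical copies can share reads, and how such reads were counted is not given in the sources used here. Levels within any pair of that kind would be uncertain.

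Identifiers with serial numbers at most 10 apart within 1 class and number were found in 5 pairs, which involve 10 of the 64 genes. In 4 pairs the log2 deviations within positions had correlations of 0.754 to 0.989. In the pair under G06 the correlation was -0.50, with 1 gene highest in bottom library 2 and the other in bottom library 3. Whether serial numbers follow the order of genes on a chromosome is not given in the files.

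The implied length of the plateau genes ranged from 202 to 2700 bases with a median of 1006, close to the median of 1044 bases among the other well-expressed genes and below the 1479 bases among all genes kept for which it could be computed.

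At the edges of the choice, values change little from one gene to the next. The nearest genes inside the 3-fold limit had ratios of 3.07 and 3.22, and the nearest outside had 2.94 and 2.76. The lowest lower-stem values were 20.7 and 21.0 FPKM inside the level limit and 19.9 and 19.9 FPKM outside it. The highest ratios of bottom to middle inside the plateau limit were 1.4896 and 1.46, with 1.59 and 1.60 outside it. The lowest were 0.725 and 0.756 inside and 0.654 outside. No gene that met the other limits was left out by the limit of 0.2 FPKM in the top.

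Genes outside the set with the most similar pattern were found by the correlation of log2(FPKM + 1) over the 9 libraries with the mean profile of the 64, among 29936 other genes whose mean reached 5 FPKM. The highest was Pop_A10G069476, with r = 0.996. Its values were 0.061, 0.114 and 0.335 FPKM in the top, 40.3, 17.3 and 41.6 FPKM in the middle and 30.6, 37.0 and 61.9 FPKM in the bottom. It missed the level limit through middle library 2. The next was Pop_G07G062607, also with r = 0.996, with means of 0.691 ± 0.191 FPKM for top, 8.74 ± 2.51 FPKM for middle and 9.78 ± 1.33 FPKM for bottom libraries (SD, n = 3 each). In all, 444 genes outside the set had a correlation of at least 0.95, while the correlations of the 64 with their own mean profile were 0.922 to 0.997.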

How the data were processed

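Per the labels' protocols, paired-end sequencing was run on poly(A) RNA of 9 stem libraries. The submitters' processing notes name Trimmomatic 0.36 and HISAT2. How reads were counted, the genome build, the annotation and any strand setting are not stated in these sources. The authors deposited whole-number counts per gene identifier and FPKM values, which divide them by gene length and library total. Codes in the sample titles matched each column to its library.

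Counts as deposited were tested with edgeR 4.0.16 in R 4.3.3 (quasi-likelihood, TMM scaling). filterByExpr with minimum count 10 and minimum total 15 kept 52436 genes. The model had 1 mean for each position over the 9 libraries, and p-values were Benjamini-Hochberg adjusted over all genes kept. The script was tested on simulated data. Alternatives were DESeq2 1.42.0, limma 3.58.1 on log2(FPKM + 1) and log2(FPKM + 0.1), other scaling and filters, a replicate block and left-out libraries.

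Deviations of same-numbered libraries had correlations across genes of 0.27, 0.12 and 0.112 between middle and top, where differently numbered ones reached at most 0.038. Between bottom and top the values were -0.03, -0.156 and 0.126, with up to 0.16 for differently numbered libraries. Between bottom and middle they were 0.055, 0 and 0.036. Correlations this small do not establish that same-numbered libraries are paired.

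The members and tests were chosen with earlier results of these data known. Named genes have the largest ratios of middle to top mean FPKM, the largest ratios of bottom to top mean FPKM among genes not already named, the highest lower-stem means or the largest coefficients of variation, 2 by each measure, plus the 2 most similar genes outside the set. Lists by gene name were not used, since the files give no names.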

Additional observations from a re-analysis of the deposited data

How the results depend on the processing

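Of the 64 genes, the limits of the choice decide the number: a fold limit of 2 gives 112 genes, and level limits of 10 and 40 FPKM give 108 and 34. A fold limit of 4 gives 56, no plateau limit 76 and no lower limit on the top value 64. Leaving out 1 library gives 52 (without bottom library 3) to 88 (without top library 1), and leaving out 1 replicate number in all positions gives 73 to 94, of which 41, 61 and 43 are among the 64 without number 1, 2 and 3.

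The number called higher in middle than in top libraries was 63 to 64 without 1 library. It was 55, 63 and 32 without replicate number 1, 2 and 3, and 64 under the other alternatives, the replicate block included. Of all genes, 4.97% to 8.44% were called higher without 1 library, and 4.41%, 3.28% and 0.394% without these replicate numbers. The number called higher in bottom than in top libraries was 58 to 64 under all alternatives, where 2.56% to 17.2% of all genes were. None of the 64 genes was called between bottom and middle in any of the 19 alternatives. Of all genes, 0% to 0.212% were called higher in the bottom and 0% to 3.16% lower. Both shares were largest in DESeq2, and both were 0% without bottom library 3. The difference between the steps was called in 64 genes in DESeq2 and in 24 with the replicate block (37 without it). It was called in 3 to 31 without 1 library and in 0, 8 and 0 without replicate number 1, 2 and 3. Of all genes, 5.09% were called with the lower change in the second step in DESeq2 and 0.605% with the replicate block. The share was 0.043% to 0.738% without 1 library and 0%, 0.101% and 0.0019% without replicate number 1, 2 and 3. The replicate block changed no other count of calls.

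The median log2 fold change was 3.80 to 4.18 between middle and top and 3.99 to 4.34 between bottom and top, where 4.34 was without top library 3. It was 0.03 to 0.40 between bottom and middle. Counts of genes with a bottom mean above the middle mean, an alternative chosen after seeing the data, were 39 to 61 without 1 library, lowest without bottom library 3 and next lowest without middle library 2, at 45. The causes were not tested. The few read pairs that the least abundant of these genes have in the top limit the precision of their ratios.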
